A study of Macaca mulatta with 56 samples.

Results

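The comparison described here is that of long estradiol treatment with empty capsules in the amygdala of old female rhesus macaques. It takes the 14 amygdala libraries, chosen by their labels, out of 56 libraries from 4 brain regions of the same 14 animals. In the 7 HT animals (numbers 36 to 42), capsules under the label OvH-HT released estradiol and held serum estradiol at a mean of 82.1 pg/mL. In the 7 OvH animals (numbers 30 to 35 and 43) the capsules were empty and serum estradiol averaged 6.6 pg/mL. Both groups were 19.4 to 23.2 years old, had been placed on a Western-style diet in which fat supplied 36% and sugars 18.5% of calories, and had their ovaries and uterus removed about 6 weeks later. The series text gives 30 months for the study and 32 months for the serum average, so the length of exposure is uncertain. No group had intact ovaries and none ate ordinary chow, so the comparison is between estradiol and no replacement on a rich diet.

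The amygdala is a group of nuclei in the temporal lobe that assigns emotional value to stimuli and holds glutamatergic principal neurons, GABAergic interneurons and many peptide-releasing cells. Estradiol acts in the brain through the nuclear receptors ESR1 and ESR2, which bind DNA, and through the membrane receptor GPER1. In other tissues it is known to influence mitochondrial function, protein synthesis and the expression of peptide genes.

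Values are upper-quartile normalized read counts as the authors deposited them, on which a level of 1 gene can be compared between animals but not with that of another gene of different length. Genes averaging 10 or more across these libraries were tested by limma on log2 of the value plus 1, and a gene is said to rise or fall in HT where its Benjamini-Hochberg adjusted p was below 0.05. Log2 differences are HT minus OvH, ± the standard error, and means are given ± SD with n = 7 per group. Each library is 1 animal, so the p-values measure the spread between animals. In a piece of tissue, fewer cells of a type and less RNA per cell cannot be told apart.

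The libraries themselves differed between the groups. Mean depth was 53.1 ± 9.29 mega-reads (M) for the HT libraries and 65.15 ± 14.9 M for the OvH libraries (exact permutation p = 0.0921, two-sided). After normalization the HT libraries summed to 71.12 ± 4.46 M and the OvH libraries to 61.36 ± 4.08 M (exact permutation p = 0.00291), and the 100 most abundant genes took 24.34 ± 2.8% of the total in HT and 18.47 ± 1.09% in OvH (exact permutation p = 0.00175). OvH animal 32 stood apart from the other libraries, with a median Spearman correlation across genes of 0.942 against 0.958 to 0.977 for the other 13. Defining markers of neurons (SNAP25), glutamatergic cells (SLC17A7), GABAergic cells (GAD1) and astrocytes (GFAP) were all abundant, with means of 201500, 62690, 13690 and 172900. MBP averaged 608200 in amygdala but is listed at 0 in the cortices, so cortical values are used below only for identifiers with alike levels, some of which may still not hold the same transcript in both places.

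**Figure D1:**
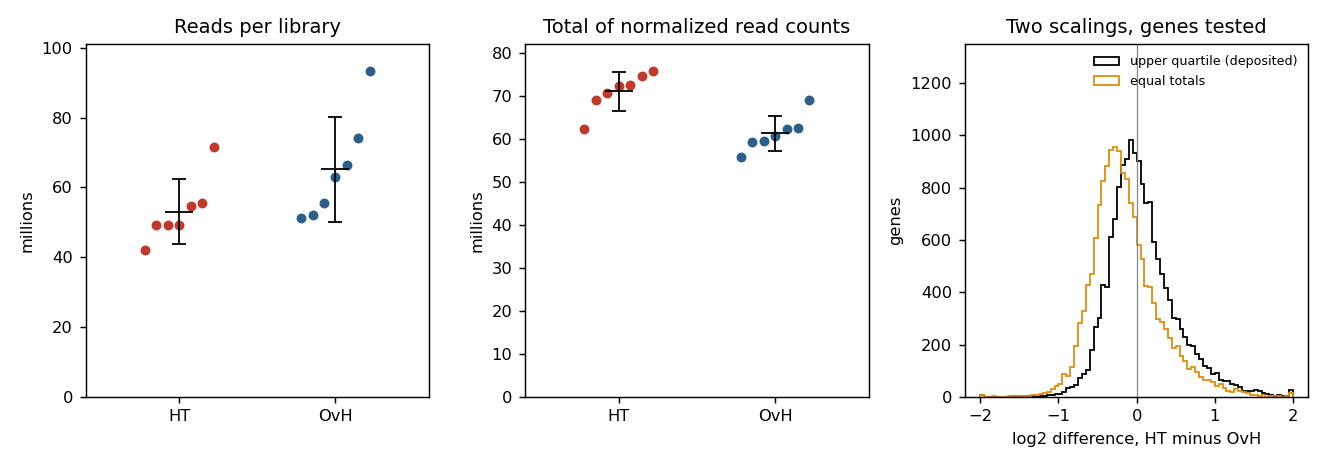
Reads per library (left) and total of normalized read counts (middle), both in units of M, for each HT and OvH amygdala library, with mean and SD (n = 7 per group), and the distribution of log2 differences over the 16129 genes tested under the deposited scaling and with equal totals (right; values past 2 on either side are drawn at the edge). HT libraries had fewer reads and higher normalized totals, and equal totals moved the median log2 difference to -0.20.

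Of 16129 genes tested in the amygdala, 994 were higher in HT (6.16%) and 118 were lower (0.732%), and 3474 had an unadjusted p under 0.05. The genes that rose had a median log2 difference of 0.86 and 366 of them exceeded 2-fold. Those that fell had a median of -0.54, and 2 exceeded 2-fold: the transcription factor gene JUNB and ENSMMUG00000058426, an identifier with no symbol. Every HT animal lay above every OvH animal for 120 genes (0.744%) and below every OvH animal for 10 (0.062%).

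These counts depended on scale and depth. With the libraries brought to equal totals, which moved the median of all genes from 0.01 to -0.20, 618 genes were higher and 1013 lower, so that 37.9% of called genes were higher in place of 89.4%. The 618 were all among the 994, the 118 all stayed lower, and 0 of the 994 turned lower. With log2 of the reads per library as a covariate, limma called 0 genes in either direction, with 2543 at an unadjusted p under 0.05 and a smallest adjusted p of 0.0615, and every named gene that had passed lost its call with its sign kept. HT libraries had fewer reads on average, so read number and treatment cannot be fully told apart in this fit. Without the covariate, edgeR on recovered reads called 675 higher and 343 lower and DESeq2 1303 higher and 450 lower. Leaving out single animals gave 1629 higher and 733 lower without 32, 1351 and 225 without 39, 578 and 25 without 36, 534 and 14 without 33, 610 and 29 without 35, and 595 and 27 without 43. The lower count alone also moved to 49 without 37, 38 without 38, 60 without 40, 31 without 42, 218 without 31 and 36 without 34.

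**Figure D2:**
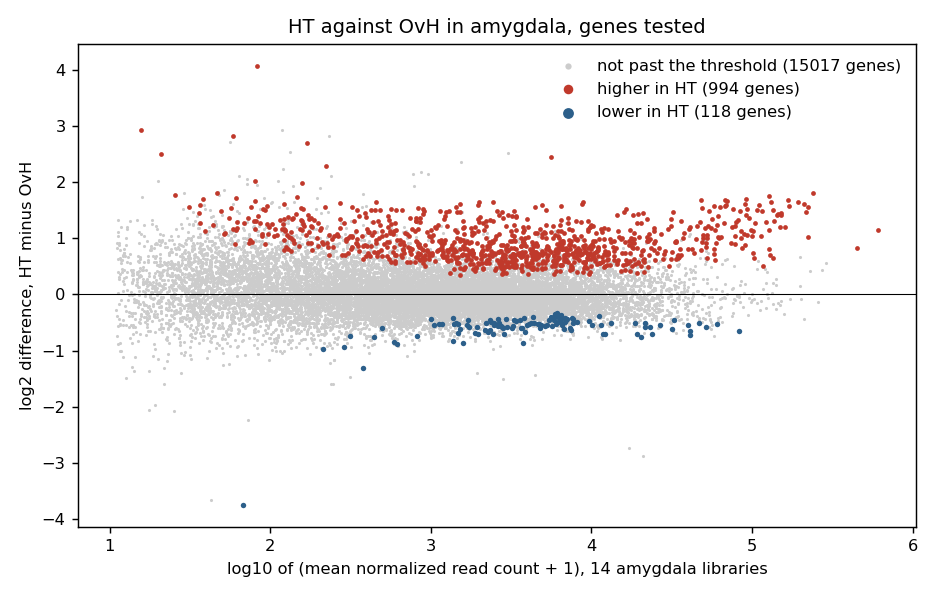
Each point is 1 of the 16129 genes tested, with log10 of the mean normalized read count plus 1 on the x axis and the log2 difference, HT minus OvH, on the y axis. The 994 genes higher in HT (red) run through the whole range of levels and include many of the most abundant transcripts, while the 118 lower genes (blue) lie mostly between 0 and -1.

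The 10 genes with the smallest p among those that rose were COMMD6, KRCC1, TAF13, RGS10, TMEM126B, ANAPC16, TMEM126A, LSM5, MED31 and SAT1. COMMD6, a member of a family that takes part in endosomal sorting, ranged from 5517 to 12560 in HT (median 8921) and from 2829 to 4707 in OvH (median 3564). All HT animals lay above all OvH animals, and the log2 difference was 1.33 ± 0.19 (adjusted p = 0.00674). RGS10, a brake on G-protein signalling that is abundant in microglia, ranged from 2067 to 3544 in HT (median 2932) and from 626 to 1786 in OvH (median 1172), again without overlap (1.38 ± 0.20, adjusted p = 0.00674). TMEM126A and TMEM126B, which serve the assembly of respiratory complex I, rose by log2 1.23 and 1.08. TMEM126B ranged from 4453 to 9756 in HT (median 6308) and from 2379 to 3835 in OvH (median 3203), and its groups did not overlap.

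Several of the others belong to the machinery of transcription and RNA processing. TAF13, a subunit of the general transcription factor TFIID, ranged from 4574 to 7225 in HT (median 5663) and from 2123 to 3585 in OvH (median 2870). MED31, a subunit of the Mediator complex, rose by 1.15, and LSM5, part of the ring that binds the U6 small nuclear RNA, by 1.23. For both, 6 of 7 HT animals lay above every OvH animal. SAT1, the rate-limiting enzyme of polyamine breakdown, ranged from 8728 to 13780 in HT (median 11240) and from 5190 to 8301 in OvH (median 5590), with a log2 difference of 0.86 ± 0.14. ANAPC16, a subunit of the anaphase-promoting complex, rose by 0.95, and KRCC1 averaged 4854 ± 1220 in HT and 2376 ± 225 in OvH. For both, all HT animals lay above all OvH animals.

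The 10 genes with the smallest p among those that fell were SLC7A14, PGM2L1, PSAP, MEF2D, EXOC3, BCAS3, PGD, PNMA6F, TRO and HOOK1. SLC7A14, a transporter-like protein of lysosomes, ranged from 661.9 to 1308 in HT (median 1004) and from 1146 to 2157 in OvH (median 1785). In 6 of 7 HT animals it lay below every OvH animal, and the log2 difference was -0.84 ± 0.17 (adjusted p = 0.00895). PGM2L1, which makes glucose 1,6-bisphosphate in brain, ranged from 1939 to 4107 in HT (median 2649) and from 3019 to 6675 in OvH (median 5116), with a log2 difference of -0.87. PSAP, the precursor of the saposins that help lysosomal enzymes break down sphingolipids, had a median of 61560 in HT (55970 to 91700) and of 109000 in OvH (81340 to 112900). Its highest HT value was that of animal 39, the only HT animal inside the OvH range.

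MEF2D, a transcription factor of activity-dependent gene expression in neurons, averaged 1764 ± 404 in HT and 2773 ± 451 in OvH, a difference of -0.66 (adjusted p = 0.0135). EXOC3, a subunit of the exocyst that tethers secretory vesicles, averaged 2565 ± 420 in HT and 3879 ± 656 in OvH (-0.59, adjusted p = 0.0149). PGD, an enzyme of the pentose phosphate pathway, averaged 3038 ± 371 in HT and 4183 ± 403 in OvH (-0.46, adjusted p = 0.0156). TRO was the only one of the 10 whose groups did not overlap, at 1657 to 2396 in HT and 2412 to 3204 in OvH. BCAS3, PNMA6F and HOOK1, a dynein adaptor, differed by -0.54, -0.88 and -0.76.

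**Figure D3:**
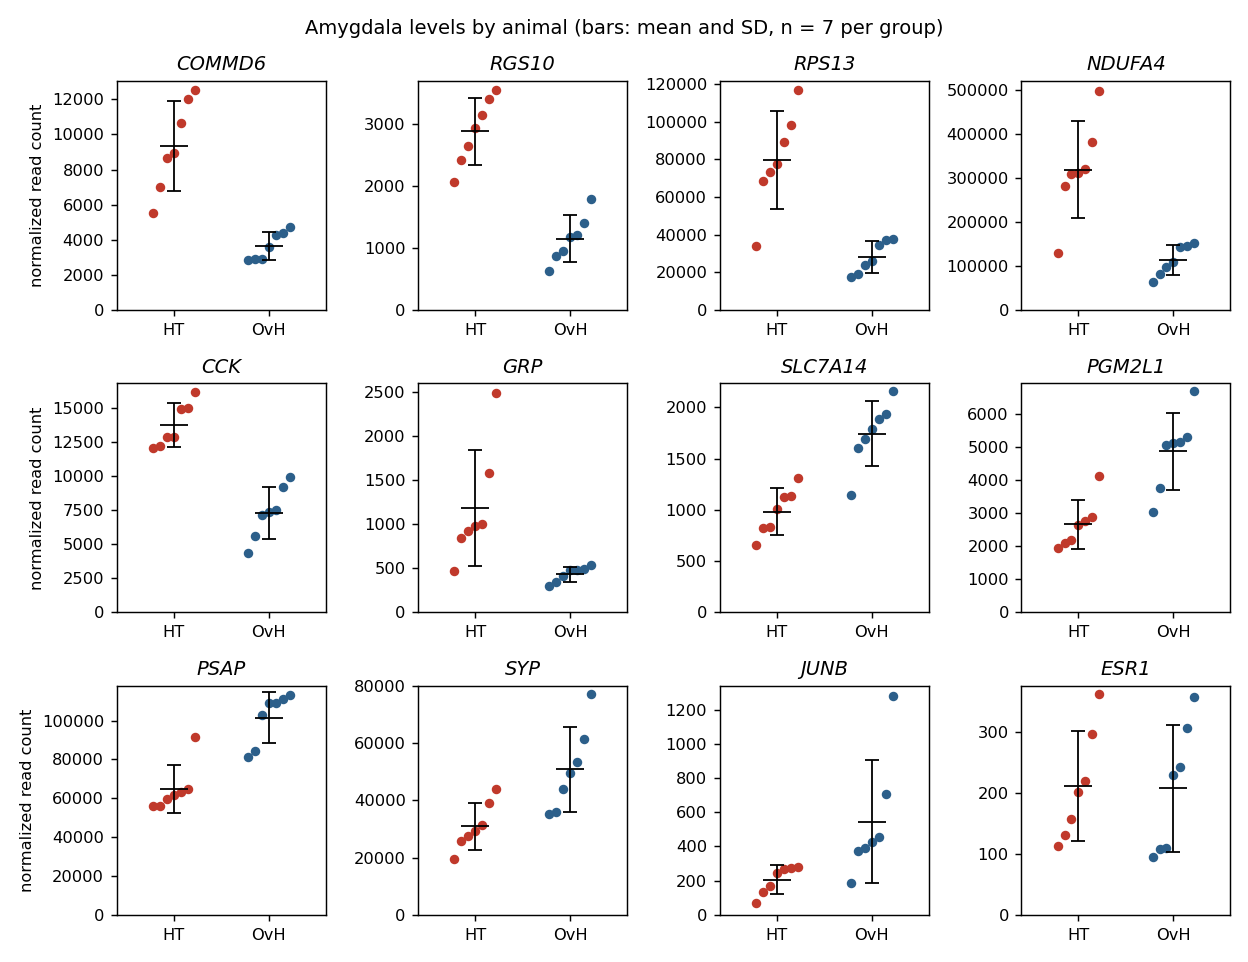
Normalized read counts of 12 genes in each HT (red) and OvH (blue) amygdala library, with mean and SD (n = 7 per group) on linear axes that start at 0. COMMD6, RGS10 and CCK separate the groups completely, RPS13 and NDUFA4 do so for 6 of 7 HT animals, and ESR1 has nearly the same range in both groups.

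Transcripts of the cytosolic ribosome, the particle that makes proteins, rose together. Of 42 proteins of the large subunit 33 rose (78.6%, against 6.16% of all genes tested) and 0 fell. Their median log2 difference was 1.13, against 0.01 over all genes tested. Of 34 identifiers for proteins of the small subunit 30 rose (88.2%) and 0 fell, with a median of 1.43. RPS13 ranged from 34020 to 116700 in HT (median 77320) and from 17630 to 37450 in OvH (median 25910). In 6 of 7 HT animals it lay above every OvH animal, and the log2 difference was 1.48 ± 0.25 (adjusted p = 0.00674). RPL39, RPL34 and RPL23A of the large subunit rose by 1.56, 1.58 and 1.14, each with 6 of 7 HT animals above all OvH animals.

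In each of these 4 genes the HT animal inside the OvH range was 39. The summed level of the small subunit was 1614000 in HT animal 39, inside the OvH range of 975600 to 1969000, while the other 6 HT animals lay between 3469000 and 6235000. The small subunit took 2.58 to 8.22% of the normalized total in HT (median 5.66%) and 1.64 to 3.05% in OvH (median 2.27%). With equal totals 32 of the large and 28 of the small subunit members still rose and 0 fell, with medians of 0.92 and 1.22. With read number as a covariate the medians were 0.94 and 1.21 but 0 members passed. Primate genomes carry many processed copies of these genes, so reads may be split between near-identical sequences and single members are less certain than the list.

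The protein factors that work on the ribosome moved in part. Of 43 translation factors 8 rose and 1 fell, with a median of 0.13. EEF1B2, which recharges the elongation factor eEF1A, averaged 81240 ± 25400 in HT and 31490 ± 9430 in OvH, a difference of 1.34 (adjusted p = 0.00783). NACA, which binds nascent chains, rose by 0.94. EIF4H, which helps the helicase eIF4A unwind messenger RNA, averaged 15560 ± 2210 in HT and 21950 ± 2570 in OvH and fell by 0.50 on the log2 scale. With equal totals 3 of the list rose and 5 fell, and 3 rose without animal 33, 4 without 36, 38, 40, 35 or 43 and 5 without 37, 42 or 34. Of 34 proteasome subunits, which form the particle that degrades tagged proteins, 4 rose (11.8%) and 1 fell (2.94%), with a median of 0.23. Over all genes tested 6.16% rose and 0.732% fell. The 20S subunit genes PSMA3 and PSMA5 rose by 0.77 and 1.03, and PSMD3 of the regulatory particle fell to 5862 ± 1320 in HT, against 8756 ± 1560 in OvH. With equal totals 3 rose and 4 fell, and 10 rose without HT animal 39 and 8 without OvH animal 32. The PSMD3 call ended without 37, 38, 42, 33, 34 or 43.

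Of 49 core spliceosome identifiers 10 rose and 1 fell, with a median of 0.12. With equal totals 9 rose and 8 fell, with a median of -0.10, and 0 fell without 36, 37, 38, 40, 42, 33, 34, 35 or 43. Among those that rose, SF3B6, a subunit of the U2 particle at the branch site, averaged 16620 ± 4340 in HT and 7237 ± 1660 in OvH, and SNRPE, an Sm ring protein, 6821 ± 1370 in HT and 3696 ± 536 in OvH. The GTPase gene EFTUD2 fell by 0.36. Of 48 genes of motors and the cytoskeleton 3 rose (6.25%, near the 6.16% of all genes tested), with a median of -0.15. In the same list 1 fell (2.08%, against 0.732%), and with equal totals 2 rose and 7 fell. The lower count was 6 without OvH animal 32 and 0 without 36, 37, 38, 40, 42, 33, 34, 35 or 43. The dynein light chain gene DYNLT1 rose by 0.61 and the kinesin gene KIF1C by 0.90. DYNLL1, another dynein light chain, ranged from 62660 to 194500 in HT (median 147300) and from 31260 to 72290 in OvH (median 49490), and DCTN1, the large subunit of dynactin, fell by 0.51.

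**Figure D4:**
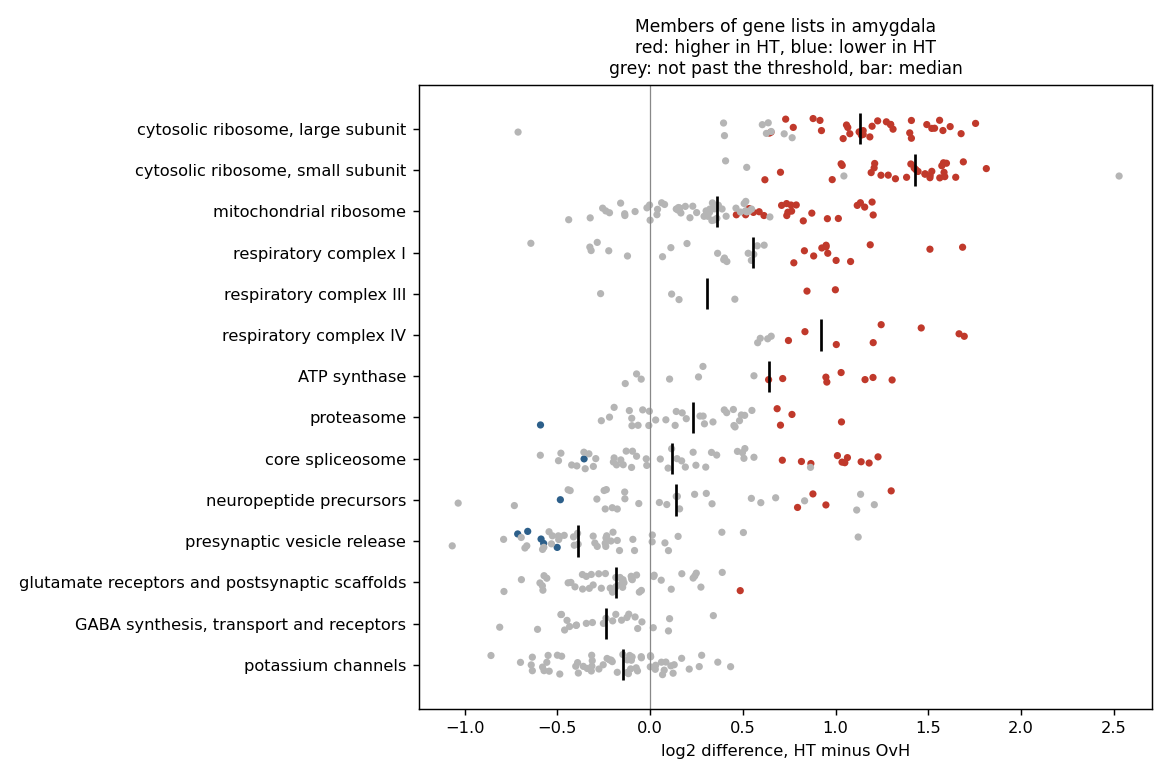
Log2 differences, HT minus OvH, of the tested members of 14 gene lists, with red points higher in HT, blue points lower in HT, grey points not past the threshold and a bar at the median. Members of the cytosolic ribosome and of complex IV lie almost wholly right of 0, while the medians of the presynaptic, glutamate receptor, GABA and potassium channel lists lie left of it.

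Nuclear-encoded subunits of the respiratory chain, which makes ATP in mitochondria, rose in part. In complex IV (cytochrome c oxidase) 8 of 12 members rose (66.7%, against 6.16% of all genes tested) and 0 fell, with a median of 0.92. Its member NDUFA4 ranged from 129600 to 499500 in HT (median 312500) and from 64600 to 151800 in OvH (median 110300). As for the ribosome, animal 39 was the only HT animal inside the OvH range. COX7A2 and COX7B, small structural subunits, rose by 1.67 and 1.69, and COX6A1 averaged 104900 ± 31300 in HT and 45310 ± 14000 in OvH.

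In complex I (NADH dehydrogenase) 12 of 30 members rose (40%, against 6.16% of all genes tested) and 0 fell (median 0.55). NDUFB9, an accessory subunit, averaged 104000 ± 42200 in HT and 30670 ± 8980 in OvH (1.69 ± 0.30). NDUFB3, NDUFS4 and NDUFB5 rose by 1.51, 0.95 and 0.93. In ATP synthase 8 of 15 rose (53.3%) and 0 fell (median 0.64). The count of 8 was 5 without animal 36, 38, 40, 33, 35 or 43. ATP5MJ stood at 1.30 and ATP5PF at 0.95, and ATP5MG averaged 56830 ± 17300 in HT and 24700 ± 8500 in OvH. In complex III 2 of 6 rose (33.3%): UQCRH averaged 49750 ± 13400 in HT and 24560 ± 5920 in OvH, and UQCRQ rose by 0.85. In complex II 1 of 4 rose (25%), SDHB (0.59). The calls of UQCRQ and SDHB ended with equal totals (adjusted p = 0.0639 and 0.0646) and by edgeR (adjusted p = 0.0755 and 0.0636). That of UQCRQ also ended without any 1 of animals 36, 38, 40, 41, 42, 30, 31, 33, 34, 35 and 43. That of SDHB also ended without any 1 of 36, 37, 38, 40, 42, 33, 35 and 43.

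The log2 differences of complex I members ran from -0.64 to 1.69. A split made after the values were seen set the 7 nuclear-encoded core subunits, which carry the redox centres, against the other 23. Of the core subunits 1 rose, NDUFS3 (0.78), and 0 fell, with a median of -0.28. Of the others 11 rose and 0 fell, with a median of 0.61. Whether core and other subunits differ was not tested. NDUFV1, the subunit that binds NADH, averaged 5352 ± 1360 in HT and 8461 ± 2930 in OvH without passing (-0.64, adjusted p = 0.106). NDUFS1, named like NDUFV1 after its values were seen, stood at -0.28 (adjusted p = 0.211). With equal totals both passed as lower (adjusted p = 0.0294 and 0.0464). In the other complexes, the alpha and beta subunits of ATP synthase, ATP5F1A and ATP5F1B, stood at -0.05 and -0.13, the flavoprotein SDHA of complex II at -0.24 and the core protein UQCRC1 of complex III at -0.27, and none of them passed. ATP5F1A, named after its values were seen like ATP5F1B, changed sign without animal 41 (0.01) or 42 (0.01).

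The mitochondrial ribosome and import machinery showed a smaller shift. Of 69 mitochondrial ribosome identifiers 22 rose and 0 fell, with a median of 0.36, but 13 rose and 2 fell with equal totals. MRPL47 ranged from 6113 to 17240 in HT (median 13540) and from 3625 to 8200 in OvH (median 5673). MRPL42 and MRPL33 rose by 0.79 and 1.12. The count of 22 became 33 without OvH animal 32, 7 without 36 or 33, 10 without 37, 38 or 35, 11 without 43, 13 without 42 and 14 without 40. Of 22 import genes 9 rose (median 0.37; 4 without 36, 38, 33 or 35 and 5 without 40, 34 or 43), among them TOMM7 of the outer membrane pore (1.08) and TIMM8B, a small carrier of the intermembrane space (1.48). HSPE1, the mitochondrial co-chaperonin, was the only one of 35 chaperone genes to pass (2.86%, against 6.16% of all genes tested). It averaged 25060 ± 3970 in HT and 15340 ± 2530 in OvH. With equal totals 1 of these 35 rose and 9 fell.

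**Figure D5:**
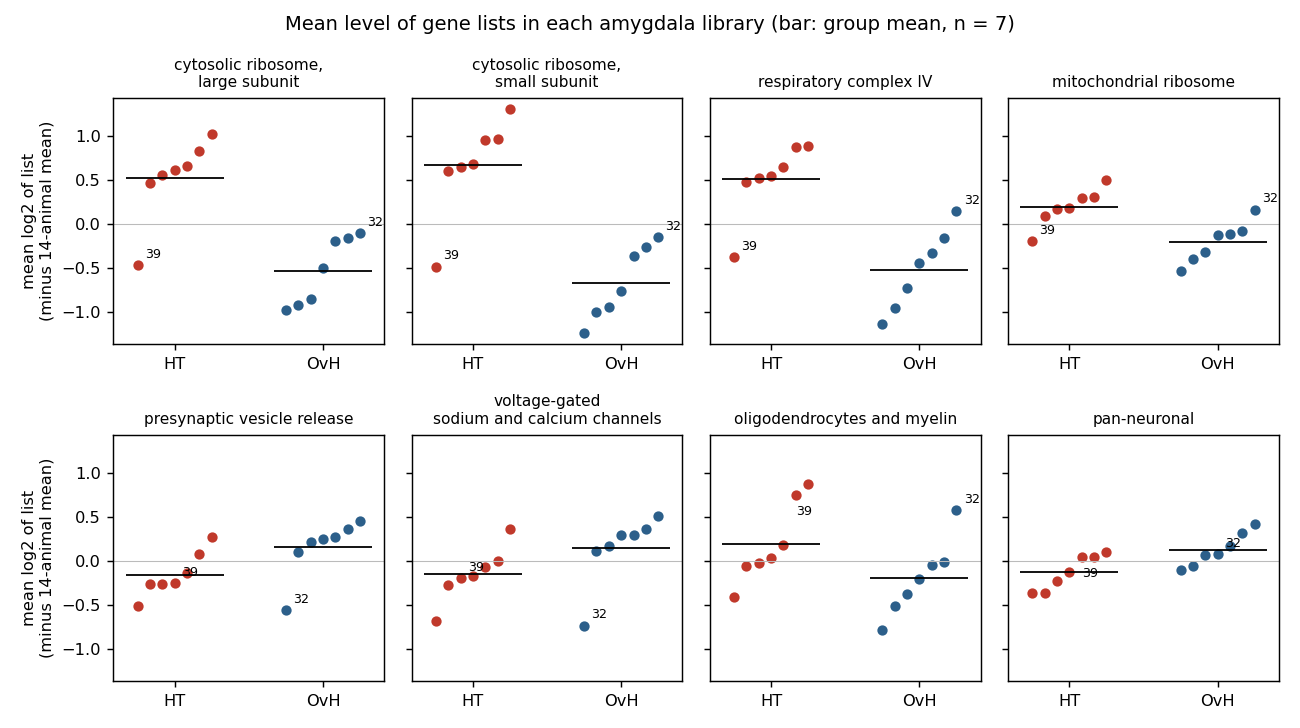
Mean log2 level of 8 gene lists in each amygdala library, after subtracting each gene's mean over the 14 animals, with group means as bars (n = 7 per group) and HT animal 39 and OvH animal 32 marked. For both ribosomal subunits 6 of 7 HT animals lie above every OvH animal and animal 39 lies among OvH animals, while for presynaptic genes OvH animal 32 lies below every HT animal.

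Enzymes that handle oxidants and lysosomal genes moved as follows. Of 38 antioxidant genes 8 rose (21.1%, against 6.16% of all genes tested) and 0 fell, with a median of 0.20. GSTO1, a glutathione transferase, ranged from 8601 to 12030 in HT (median 9493) and from 3877 to 7863 in OvH (median 5095). Its groups did not overlap (0.86 ± 0.16, adjusted p = 0.00783). PRDX4, a peroxiredoxin of the endoplasmic reticulum, and TXN, cytosolic thioredoxin, rose by 0.74 and 0.86. With equal totals 5 of the list rose and 2 fell, and 3 rose without animal 33 and 5 without 36, 38, 40, 35 or 43.

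Of 34 genes of the proton pump and lysosome 3 rose (8.82%) and 2 fell (5.88%), against 6.16% and 0.732% of all genes tested. With equal totals 2 rose and 8 fell. Among subunits of the vacuolar proton pump, ATP6V1G1 averaged 25090 ± 5480 in HT and 11810 ± 2770 in OvH (1.09), whereas ATP6V1B2, the brain form of its B subunit, fell to 49270 ± 8010 in HT, against 71020 ± 10100 in OvH (-0.53). The ATP6V1B2 call ended without any 1 of animals 36, 37, 41, 42, 33, 34 and 43. The protease gene CTSS, a microglial cathepsin, rose by 0.70, and CTSD, the main lysosomal aspartic protease, stood at -0.76 without passing (adjusted p = 0.0551).

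Genes of synaptic vesicle release, the step by which neurons pass signals on, leaned lower. Of 44 members 5 fell (11.4%) and 0 rose, against 0.732% and 6.16% of all genes tested. The list's median log2 difference was -0.39. SYP, an abundant vesicle membrane protein, ranged from 19610 to 43880 in HT (median 29220) and from 35240 to 77160 in OvH (median 49520). In 5 of 7 HT animals it lay below every OvH animal, and the log2 difference was -0.71 ± 0.20 (adjusted p = 0.0397). SV2B, a vesicle glycoprotein, and NAPB, which helps take used SNARE complexes apart, fell by 0.57 and 0.50, and the endocytic GTPase gene DNM1 by 0.66.

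Other members of the list did not pass, with SNAP25 at -0.08, CPLX2 at -0.09 and SLC17A7 at -0.24. The count of 5 fell to 0 without animal 36, 37, 38, 42, 33, 34 or 43 and to 1 without 40 or 35, was 9 without OvH animal 32, and was 14 with equal totals. With read number as a covariate the list's median was -0.29 and 0 members passed.

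Few postsynaptic and channel genes passed. Of 46 glutamate receptor and scaffold genes 1 rose (2.17%, against 6.16% of all genes tested) and 0 fell (median -0.18). It was HOMER2, a scaffold that links metabotropic receptors to calcium stores, at 3589 ± 540 in HT and 2559 ± 356 in OvH (0.49). That call ended with equal totals (adjusted p = 0.149). GRID1 stood at -0.43 (adjusted p = 0.0787). None of 25 GABA genes passed (median -0.24), nor any of 59 potassium channel genes (median -0.15), with KCNG1 at -0.70 (adjusted p = 0.116). Of 25 sodium and calcium channel genes 1 rose and 1 fell (4% each, against 6.16% and 0.732% of all genes tested). SCN4B, an auxiliary sodium channel subunit, averaged 2825 ± 664 in HT and 1743 ± 502 in OvH (0.70). CACNB1 averaged 3477 ± 666 in HT and 4941 ± 891 in OvH (-0.51). SCN4B did not pass with equal totals (adjusted p = 0.134). Without OvH animal 32, 7 of the glutamate receptor list, 5 of the GABA list and 9 of the potassium channels fell. So did 8 of the sodium and calcium channels. With equal totals the same lists gave 7, 5, 2 and 2. Over all 16129 genes tested, 733 fell without animal 32 and 1013 with equal totals, so genes outside these lists fell in both settings too. The HOMER2 call ended by edgeR (adjusted p = 0.0754) and without any 1 of 36, 37, 38, 40, 33, 34, 35 and 43. The SCN4B call ended by edgeR (adjusted p = 0.0873). It also ended without any 1 of 36, 38, 39, 40, 41, 42, 30, 31, 34, 35 and 43. The CACNB1 call ended without any 1 of 36, 37, 38, 40, 42, 33, 34, 35 and 43.

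Of 33 genes for neuropeptide precursors and their processing, 4 rose (12.1%) and 1 fell (3.03%), against 6.16% and 0.732% of all genes tested. The list's median was 0.14. CCK, the precursor of cholecystokinin and a peptide of amygdala interneurons, ranged from 12060 to 16200 in HT (median 12890) and from 4380 to 9966 in OvH (median 7336). All HT animals lay above all OvH animals, animal 39 included, and the log2 difference was 0.95 ± 0.16 (adjusted p = 0.00674). GRP, gastrin-releasing peptide, which acts on amygdala interneurons, ranged from 469.7 to 2482 in HT (median 972.9) and from 294.3 to 537.1 in OvH (median 475.3). Here 6 of 7 HT animals lay above every OvH animal, and the lowest HT value was that of animal 39 (1.30 ± 0.28, adjusted p = 0.0113).

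TAC1, the precursor of substance P, averaged 3825 ± 1110 in HT and 2095 ± 621 in OvH (0.88), and VIP, vasoactive intestinal peptide, 1563 ± 251 in HT and 946.8 ± 362 in OvH (0.80). PCSK2, a protease that cuts peptide precursors, fell to 5764 ± 1100 in HT, against 7996 ± 1010 in OvH (-0.48). The call of VIP ended with equal totals (adjusted p = 0.0721) and by edgeR (adjusted p = 0.0928). It also ended without any 1 of animals 36, 37, 38, 40, 30, 33, 35 and 43. That of PCSK2 ended without any 1 of 36, 37, 38, 42, 33, 34, 35 and 43, and that of TAC1 without HT animal 36, which left 2 of the list higher. With equal totals 3 of the list rose and 3 fell. Other peptide genes did not pass, among them SST (-0.29), NPY (0.33), CRH (-0.18) and PENK (-0.24).

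The receptors of the hormone itself showed no difference that passed. ESR1 ranged from 112.4 to 362.5 in HT (median 201.8) and from 95.53 to 358.5 in OvH (median 230.2), with a log2 difference of 0.09 ± 0.35 (adjusted p = 0.914). The groups covered nearly the same range. ESR2 ranged from 4.42 to 116.2 in HT and from 16.76 to 44.93 in OvH (-0.01 ± 0.57, adjusted p = 0.993). PGR, the progesterone receptor and in reproductive tissue a target of estradiol, had medians of 19.9 in HT and 16.38 in OvH (0.18 ± 0.37, adjusted p = 0.833). GPER1 stood at -0.49 ± 0.26 (adjusted p = 0.298). The signs of ESR1 and PGR turned with equal totals (-0.12 and -0.02), and ESR2 gave 0.49 by edgeR. The standard errors leave room for changes of either sign at these low levels.

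Of 15 steroid receptor genes 1 rose (6.67%, near the 6.16% of all genes tested). It was PAQR6, a membrane progestin receptor, at 39880 ± 10800 in HT and 19690 ± 12000 in OvH (1.16, adjusted p = 0.0176). Its OvH range ran to 45310 in animal 32, above 6 of 7 HT animals, and its call ended by edgeR. Of 32 genes known to respond to estrogen in other tissues 1 rose (3.12%), PKIB, an inhibitor of protein kinase A. It ranged from 1191 to 1812 in HT (median 1456) and from 762 to 1070 in OvH (median 959.7), and its groups did not overlap. The list's median was 0.03, close to the 0.01 of all genes.

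Of 23 genes of neurosteroid and estrogen metabolism 2 rose (8.70%, against 6.16% of all genes tested), and with equal totals 1 rose and 2 fell. STAR, which brings cholesterol into mitochondria for steroid synthesis, ranged from 3131 to 5388 in HT (median 4785) and from 2475 to 4091 in OvH (median 3037). Animal 39 was again the only HT animal inside the OvH range (0.58 ± 0.14, adjusted p = 0.021). AKR1C1, a hydroxysteroid dehydrogenase with near-identical paralogs between which reads may be split, averaged 21000 ± 5160 in HT and 13720 ± 2180 in OvH (0.59). It did not pass with equal totals (adjusted p = 0.0997) or by edgeR (adjusted p = 0.0564). Neither gene of this list passed without animal 36, 33, 35 or 43. None of 27 cholesterol genes passed, with APOE at -0.64 (adjusted p = 0.158).

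Of 28 immediate early genes, which neurons switch on with activity, 1 fell (3.57%, against 0.732% of all genes tested). JUNB ranged from 71.07 to 281.3 in HT (median 245.2) and from 183.8 to 1278 in OvH (median 427). The groups overlapped, the log2 difference was -1.31 ± 0.39 and the adjusted p of 0.0496 was just inside the threshold, past which it moved without any 1 of animals 36, 37, 38, 40, 41, 42, 30, 33, 34, 35 and 43. JUN stood at -0.68 (adjusted p = 0.0533). Of 29 interferon-stimulated genes 2 fell (6.9%), IFI44L (-0.94) and MX1 (-0.70). That count was 4 with equal totals, 5 without OvH animal 32, 1 without 36, 37, 39, 30 or 34, and 0 without 38, 41, 42, 33, 35 or 43.

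Markers of cell types passed about as often as other genes. Of 201 such identifiers 11 rose (5.47%) and 1 fell (0.498%), against 6.16% and 0.732% of all genes tested, and with equal totals 9 rose and 7 fell. Of 23 oligodendrocyte and myelin identifiers 3 rose, with a list median of 0.33, and 1 rose without OvH animal 33. MBP, a main protein of myelin, ranged from 574600 to 1213000 in HT (median 744400) and from 182300 to 857500 in OvH (median 377800). The groups overlapped, and OvH animal 32 was above 4 of 7 HT animals. The MBP difference was 1.14 (adjusted p = 0.0297), and its call ended by edgeR (adjusted p = 0.0663). It also ended without any 1 of animals 36, 37, 41, 33, 34, 35 and 43. GJB1, the gap junction gene of oligodendrocytes, averaged 5063 ± 1130 in HT and 2516 ± 1260 in OvH (1.14). MOG stood at 0.59 (adjusted p = 0.208). The summed level of the list ran from 838600 to 1723000 in HT and from 404900 to 1387000 in OvH. BCAS1, which marks newly forming oligodendrocytes, ranged from 23340 to 45050 in HT (median 28700) and from 5066 to 25060 in OvH (median 13370), and was the only one of 12 precursor markers to pass.

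Of 17 microglial markers 2 rose (11.8%, against 6.16% of all genes tested), AIF1 (1.06) and GPR34 (0.68). With equal totals 1 of the list rose. AIF1, which codes for the microglial protein IBA1, ranged from 1823 to 3334 in HT (median 2149) and from 784.7 to 1865 in OvH (median 1016). The GPR34 call ended with equal totals (adjusted p = 0.147) and by edgeR (adjusted p = 0.0846). It also ended without any 1 of animals 36, 37, 38, 42, 33, 34 and 35. P2RY12 and TREM2 did not pass (0.37 and 0.40). Summed microglial levels were 30980 to 59120 in HT and 28360 to 68330 in OvH. Of 19 astrocyte markers 1 rose (5.26%), S100B, at 103200 ± 25100 in HT and 52900 ± 24600 in OvH (1.05). GFAP and AQP4 stood at -0.09 and 0.11 without passing.

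Neuronal markers leaned below 0. Among 20 pan-neuronal genes DNM1 was the only one to pass (5% of the list fell, against 0.732% of all genes tested). The list's median was -0.24. The count that fell was 3 with equal totals, 5 without OvH animal 32 and 0 without 36, 37, 38, 40, 42, 33, 34, 35 or 43. Of 15 excitatory neuron markers none passed (median -0.20). Of 15 inhibitory neuron markers 1 rose (VIP, 6.67% of the list, against 6.16% of all genes tested). PVALB, a marker of fast-spiking interneurons, averaged 2983 ± 1240 in HT and 1478 ± 802 in OvH without passing (1.09, adjusted p = 0.0636). Summed pan-neuronal levels were 641100 to 897500 in HT and 657800 to 996000 in OvH. None of 15 endothelial markers passed, with CLDN5 at -0.69 (adjusted p = 0.0982). Of 12 pericyte markers 1 rose (8.33%), HIGD1B (1.36), and of 16 amygdala-associated genes 1 rose (6.25%), GRP. Of 14 markers of striatal projection neurons, which neighbouring tissue could add, 1 rose (TAC1, 7.14%) and the median was 0.05. Each of these shares of higher members is 1 gene and lies near the 6.16% of all genes tested. None of 11 meningeal, 12 choroid plexus or 4 blood genes passed. The meningeal median was 0.53, with 10 of 11 genes above 0. Summed meningeal levels ran from 41530 to 367600 in HT (median 53690) and from 35240 to 136900 in OvH (median 83730). Summed choroid plexus levels ran from 1333 to 7904 in HT (median 2711) and from 1298 to 27240 in OvH (median 2469). Single libraries thus held far more of these transcripts than others. The part of cell makeup in the differences above was not tested.

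The animals allow a test of whether the difference in amygdala departs from that in cortex. For each animal the mean log2 level in occipital and prefrontal cortex was taken from that in amygdala, for 10444 identifiers whose mean levels were within 2-fold of each other. HT and OvH differed in this measure for 1 identifier above 0 (0.00957%) and 1 below 0 (0.00957%), with 2335 at an unadjusted p under 0.05. The one above 0 was VILL, a villin-like gene, with a difference of 1.24 ± 0.20 (adjusted p = 0.0425), but its amygdala level overlapped wholly between the groups. It ranged from 270.6 to 1215 in HT (median 917.8) and from 185.5 to 530.4 in 6 OvH animals, with 2774 in OvH animal 30. The one below 0 was ENSMMUG00000051631, which has no symbol, with a difference of -1.41 ± 0.22 (adjusted p = 0.0425) and levels of 92.78 ± 32.5 in HT and 173 ± 39.8 in OvH amygdala.

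The test was sensitive to its limits: with levels within 4-fold it called 213 above 0 and 47 below 0, with equal totals 125 and 860, with hippocampus added 0 and 0, and with libraries unpaired 0 and 0. The cortices of the same animal were the closest match for 10 of 14 hippocampus libraries. That correlation across genes was 0.052 for animal 30, 0.05 for animal 43, 0.147 for animal 42 and 0.372 for animal 33. Each of these hippocampus libraries matched the cortices of another animal better, so their animal numbers are uncertain, most of all for 30 and 43. Differences close to the threshold were common. SAT1, CCK, ATP6V1G1, KIF1C, NACA and ATP6V1B2 had differences from cortex of 0.80, 1.10, 1.11, 0.93, 0.96 and -0.64 with an adjusted p of 0.0618 each. Their own HT differences in cortex were 0.06, -0.16, -0.02, -0.03, -0.02 and 0.11. These genes were named for a small p in amygdala, a choice that favours large differences from cortex. None of these differences passed, so they do not show an effect particular to the amygdala.

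ENSMMUG00000058426, an identifier with no symbol, fell in the amygdala. It had values of 1.473 to 14.59 in 6 HT animals and 78.53 in HT animal 42, against 63.57 to 230.5 in OvH (log2 -3.75 ± 0.64, adjusted p = 0.00674). Its HT difference in the cortices, not tested by itself, was -4.06, and the difference between amygdala and cortices was 0.31 (adjusted p = 0.561). It was named after its values were seen, and the files pair no symbol with it.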

How the data were processed

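Messenger RNA libraries were prepared with a stranded kit from pulverized tissue, per the labels' protocols. The deposited table holds read signal, that is upper-quartile normalized counts, for 17807 Ensembl identifiers in 56 libraries. Per the submitters' processing notes, FastQC 0.1.1.2, Trimmomatic, STAR 2.7.3a and edgeR 3.28.0 were used with the build Mmul_10. The counting program and its strand setting are not given in the sources used here, so overlapping and antisense genes cannot be told apart. Gene positions and promoter or protein sequences were not analysed here. The upper quartile was 2818.9375 in every library, and undoing the scaling gave whole reads for 100% of values (within 0.01 reads). Symbols matched 15123 identifiers.

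From these values HT was compared with OvH over 16129 genes by limma (version 3.58.1, R 4.3.3; pseudocount 1, intensity trend), two-sided, so that fold changes of low genes are understated. Count tests on the recovered reads used edgeR 4.0.16 and DESeq2 1.42.0. Depth ran from 42.18 to 93.34 mega-reads per amygdala library. No libraries of a group were near copies (smallest chi-square per degree of freedom 76.1). The animal number pairs amygdala with cortex: deviations from group means correlated at 0.316 to 0.757 within animals, and 14 of 14 animals correlated best with themselves. Methods were tested on simulated data.

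The genes named were the 10 with the smallest p in each direction and a symbol on 1 identifier, up to 4 members of each of 43 lists, and steroid receptors; a few of these are not reported here. Others are said to be named after their values were seen, or come from a list as examples. The lists, of which 14 are cell type markers, were written with earlier results of these data known. No list test was run.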

Additional observations from a re-analysis of the deposited data

Results flagged for a closer look

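Single animals stood apart in 17 of 210 combinations of a named gene and a group, by a gap to the nearest animal above the 95% critical value of Dixon's test for 7 animals. Chance alone gives about 1 in 20.

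HT animal 39 was the animal apart for 6 genes. It had 2805 for ANAPC16, 64630 for RPL23A, 16240 for ATP5PF and 3131 for STAR, below the other HT animals, and 91700 for PSAP and 3830 for PGD, above them. In all 6 it lay on the side of the OvH animals. HT animal 41 was highest for MEF2D (2653), KIF1C (14810), PAQR6 (62500) and GJB1 (7361), and HT animal 42 for PGR (52.35) and ENSMMUG00000058426 (78.53). OvH animal 32 was highest for SDHA (22890), UQCRQ (24120) and PAQR6 (45310), OvH animal 31 for NDUFB3 (4595) and OvH animal 30 for VILL (2774).

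The HT difference departed from that in the cortices for VILL (1.236) and ENSMMUG00000051631 (-1.406), by limma on the difference per animal.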

How the results depend on the processing

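Against 994 genes higher and 118 lower, equal totals gave 618 and 1013 and read number as a covariate 0 and 0. The lower count was 343 by edgeR, 450 by DESeq2 and 64 without the intensity trend. Without single animals the higher count ran from 534 to 1629 and the lower from 14 to 733. The other settings kept each count within 1.5 times. Against 2 identifiers whose difference departed from cortex, the fit with no replicate block (animals not paired) gave 0, added hippocampus 0, a 4-fold limit 260 and equal totals 985.

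Of 85 named genes past the threshold, 85 lost the call with the depth covariate, 7 with equal totals, 9 by edgeR, 8 without the filter, 8 without the trend, and 0 by DESeq2 or with a pseudocount of 10. The call of 22 ended without at least 1 single animal, 20 of them without OvH animal 33 and 19 without HT animal 36. The sign turned for 4 genes that had not passed. ESR1 gave -0.121 with equal totals, -0.078 by edgeR, -0.071 with the depth covariate and -0.065 to 0.251 without single animals. ESR2 gave 0.486 by edgeR, 0.561 by DESeq2, 0.115 with a pseudocount of 10, 0.065 with the depth covariate and -0.343 to 0.396 without single animals. PGR gave -0.023 with equal totals and -0.059 to 0.305 without single animals. Without single animals ATP5F1A ran from -0.082 to 0.008. The cause was not tested.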
